A study of Dascyllus aruanus with 17 samples.

Results

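The transcripts described here are those of fatty acid degradation in the brain of *Dascyllus aruanus*, a damselfish that lives in groups in branching corals. A feature of the deposited count table was a member when its annotation named the KEGG fatty acid degradation pathway (ko00071) and named neither the glycolysis pathway nor the citrate cycle. Of 21805 counted features, 56 carried the pathway, 15 of these were left out by the exclusion, and 41 were members. A feature is a gene of a de novo transcriptome assembly, and its name is that of the best orthologue match in the authors' deposited annotation.

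Fatty acid degradation takes place in mitochondria and peroxisomes. An acyl-CoA synthetase first joins the fatty acid to coenzyme A, carnitine palmitoyltransferases carry long chains into the mitochondrion, and each round of beta-oxidation then removes a piece of the chain by dehydrogenation, hydration, another dehydrogenation and thiolysis. The brain is known to use little fatty acid as fuel, and its oxidation of fatty acids is held to take place largely in astroglia, whereas acyl-CoA made in neurons and glia also enters membrane lipids.

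The study asked how artificial light at night (ALAN) alters the brain transcriptome at the end of the day and at the end of the night. Whole brains of wild fish were sequenced, with 1 brain per library, in 4 groups. Control day (n = 3, numbered 1, 2 and 4) and control night (n = 4) fish saw a natural light-dark cycle, and ALAN day (n = 3) and ALAN night (n = 4) fish received dim white light through the dark phase for 72 h. Brains were taken at zeitgeber time (ZT) 11 h, before sunset, or at ZT 23 h, before sunrise, after 96 h of habituation for all fish. The fish came from 6 colonies, light was given to colonies and the sources used here do not tie fish to colonies. The p-values therefore compare groups against the spread among these fish and not against that among colonies. Colony and treatment cannot be told apart. In whole-brain RNA, fewer cells of a type and less RNA per cell cannot be told apart either.

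Library totals ran from 14942982 to 23051251 counts. Markers of other tissues differed between groups: the summed level of 26 liver marker features (without TF and CP, which brain also expresses) was 453.0 to 1107 CPM (counts scaled to a common library size) in control day, 13.5 to 91.1 CPM in ALAN day, 20.6 to 206 CPM in control night and 13.9 to 50.9 CPM in ALAN night. The summed level of 20 muscle marker features was 1291 and 1048 CPM in control day 1 and 4 and 366.8 to 611 CPM in the other libraries. Radial glia and astroglia markers (13 features) summed to 4159 to 6376 CPM in control day, 5657 to 6583 CPM in ALAN day, 7095 to 7976 CPM in control night and 6142 to 8500 CPM in ALAN night. Microglia markers (7 features) summed to 197 to 790 CPM in the day groups and 707 to 1563 CPM in the night groups. A defining neuronal marker was present in each library, the GAD1 feature DN95_c0_g1, at 243 CPM or more. Photoreceptor markers (17 features) summed to 1903 CPM in control night 4 and 387 CPM in control night 2, and to 36.7 to 296 CPM in the other libraries. The gene symbols of this list included EXORH, AANAT and ASMT, which the pineal organ expresses. Pituitary markers (7 features) summed to 845 and 1357 CPM in ALAN day 1 and 2, 1412 CPM in ALAN night 2 and 484 CPM in control night 4, and to 62.4 to 112 CPM elsewhere. Control day held the most liver marker RNA, with control day 2 highest at 1107 CPM and control day 1 and 4 at 494.3 and 453.0 CPM. The main results that use control day are therefore given also without control day 2 (highest in liver markers), without control day 1 and 4 (highest in muscle markers), or with both marker sums as covariates. Neither omission removes the difference in liver markers. Without control day 2, control day 1 and 4 still exceed every brain of the other groups. Without control day 1 and 4, control day rests on the brain at 1107 CPM. Calls kept in these fits do not test the part of liver markers.

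**Figure D1:**
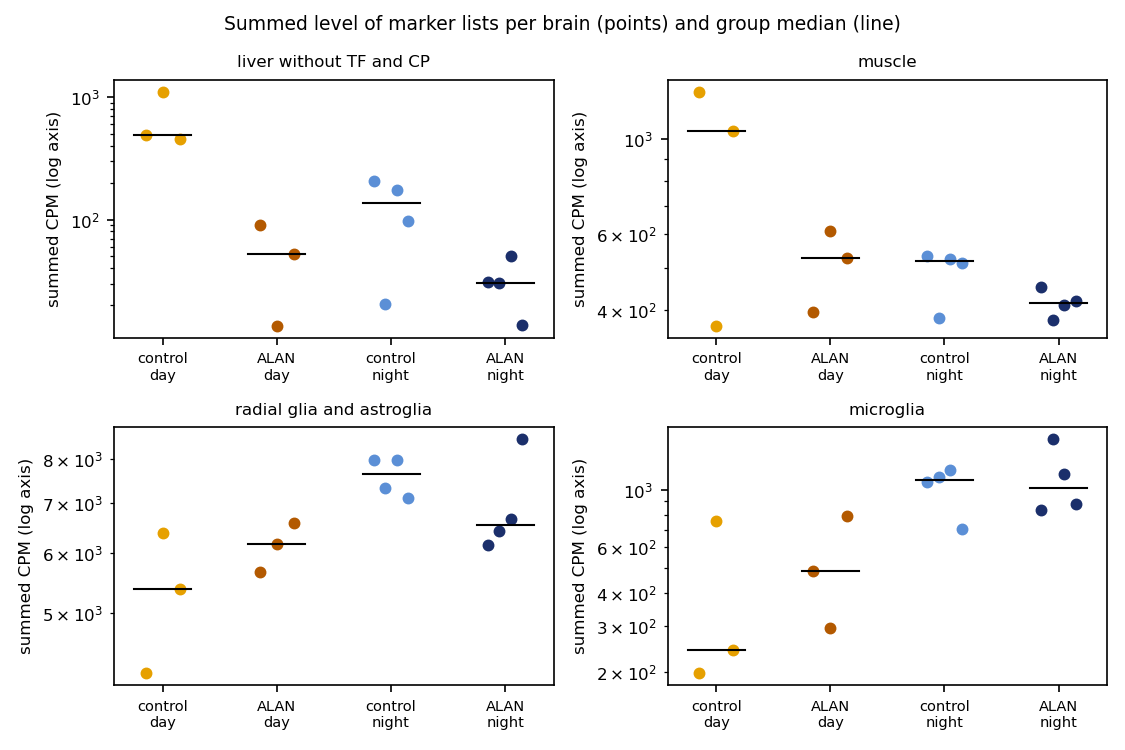
Summed CPM (log axis) of 4 marker lists in each brain (points) with the group median (lines). Control day lies highest for liver markers, at 453.0 to 1107 CPM, and control day 1 and 4 lie highest for muscle markers, at 1291 and 1048 CPM. For both glial lists the medians of the night groups lie above those of the day groups.

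By role the 41 members were 13 acyl-CoA synthetases, 4 carnitine palmitoyltransferases, 7 acyl-CoA dehydrogenases, 2 peroxisomal acyl-CoA oxidases, 6 enzymes of the hydratase and 3-hydroxyacyl-CoA dehydrogenase steps (counting HADHB, the thiolase subunit that is bound to HADHA), 2 enoyl-CoA isomerases, 5 thiolases, 1 cytochrome P450 (CYP4B1) and 1 small GTPase (RASD1). The median bit score of the members' matches was 811, with a range of 216 to 1433. Names were given for all but 3 members, and 5 names were shared by 11 members, among them ACSL1, ACSL3, GCDH, EHHADH and ACAA1. Reads of near-identical copies may therefore be divided between features. Some features share the first part of their assembly identifier but differ in its component field. These are the 2 unnamed synthetases DN4070_c0_g1 and DN4070_c2_g2, and the ACSL1 features DN12422_c0_g1 and DN12422_c1_g1. CPT1C (DN843_c6_g1) and the unnamed carnitine palmitoyltransferase DN843_c7_g1 are another such pair. Whether the sequences of these pairs are near-identical was not tested. No counted feature carried the name CPT2, the inner-membrane partner of CPT1.

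RASD1 (DN6547_c0_g1) stands apart by its annotation. RASD1 is a Ras-family GTPase first known as a gene induced by dexamethasone in mammalian cells, and its only protein domain in the annotation is that of Ras. It met the membership rule because an enoyl-CoA isomerase orthologue number stands beside 2 others in its annotation, so it is given here apart from the 39 tested enzymes. It was also the only one of the 41 members placed in the circadian entrainment pathway.

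Annotations that the rule did not use were shared widely. Of the 41 members, 35 were also placed in fatty acid metabolism, 26 in PPAR signalling (the lipid-sensing nuclear receptors that regulate many of these genes in mammals), 17 in the peroxisome, 17 in adipocytokine signalling, 14 in degradation of valine, leucine and isoleucine, 14 in thermogenesis and 10 in ferroptosis. The AMP-binding domain of acyl-CoA synthetases was present in 13 members, a thiolase domain in 6 and a carnitine acyltransferase domain in 4.

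Of the 41 members, 40 passed the filter on low counts. The member removed was the ACSL1 feature DN12422_c1_g1, at 0 to 0.659 CPM. The summed level of the 41 members was 1609 to 1679 CPM in control day, 1667 to 1705 CPM in ALAN day, 1438 to 1548 CPM in control night and 1548 to 1629 CPM in ALAN night. Without RASD1 the sum was 1419 to 1487 CPM, 1490 to 1513 CPM, 1349 to 1441 CPM and 1424 to 1490 CPM in the same order. Within each treatment the sums of all 41 members were lower in every night brain than in every day brain, whereas without RASD1 the control ranges overlapped and the ALAN ranges met at 1490 CPM. CPM values are not divided by transcript length, so levels are compared between brains and not between genes.

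Time of day separated RASD1, ACSBG2 and CYP4B1 in both light regimes, with no overlap of night and day brains within either. Night against day over both treatments (the mean of the control and ALAN night-day differences in 1 edgeR quasi-likelihood fit) called 7 of 40 members (17.5%) at an adjusted p under 0.05, the meaning of "called" below unless DESeq2 is named, against 4.34% of all 20782 features tested. Of the 7, 4 were higher at night (2.23% of all features were called higher) and 3 lower (2.11% of all features). DESeq2 called 10 members, against 8.63% of all features, and 15 passed an unadjusted p under 0.05, against 17.7%. Among the enzymes alone the count was 6 of 39 (15.4%). The members' median log2 fold change was 0.027, beside 0.011 over all features, and 20 members lay above 0 and 20 below, so the called members did not share a direction. Leaving out 1 library at a time gave 3 to 7 calls: 3 without control day 1 or ALAN day 3, and 4 without control day 4, ALAN day 2, control night 1, control night 4, ALAN night 3 or ALAN night 4. Without control day 2 there were 6 calls, all but ACSBG1. Leaving out control day 1 and 4 together gave 3 calls (RASD1, ACSBG2 and ACADM, among 313 calls over all features), and adding the liver and muscle marker levels as covariates gave 1 (RASD1, among 192 calls over all features).

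**Figure D2:**
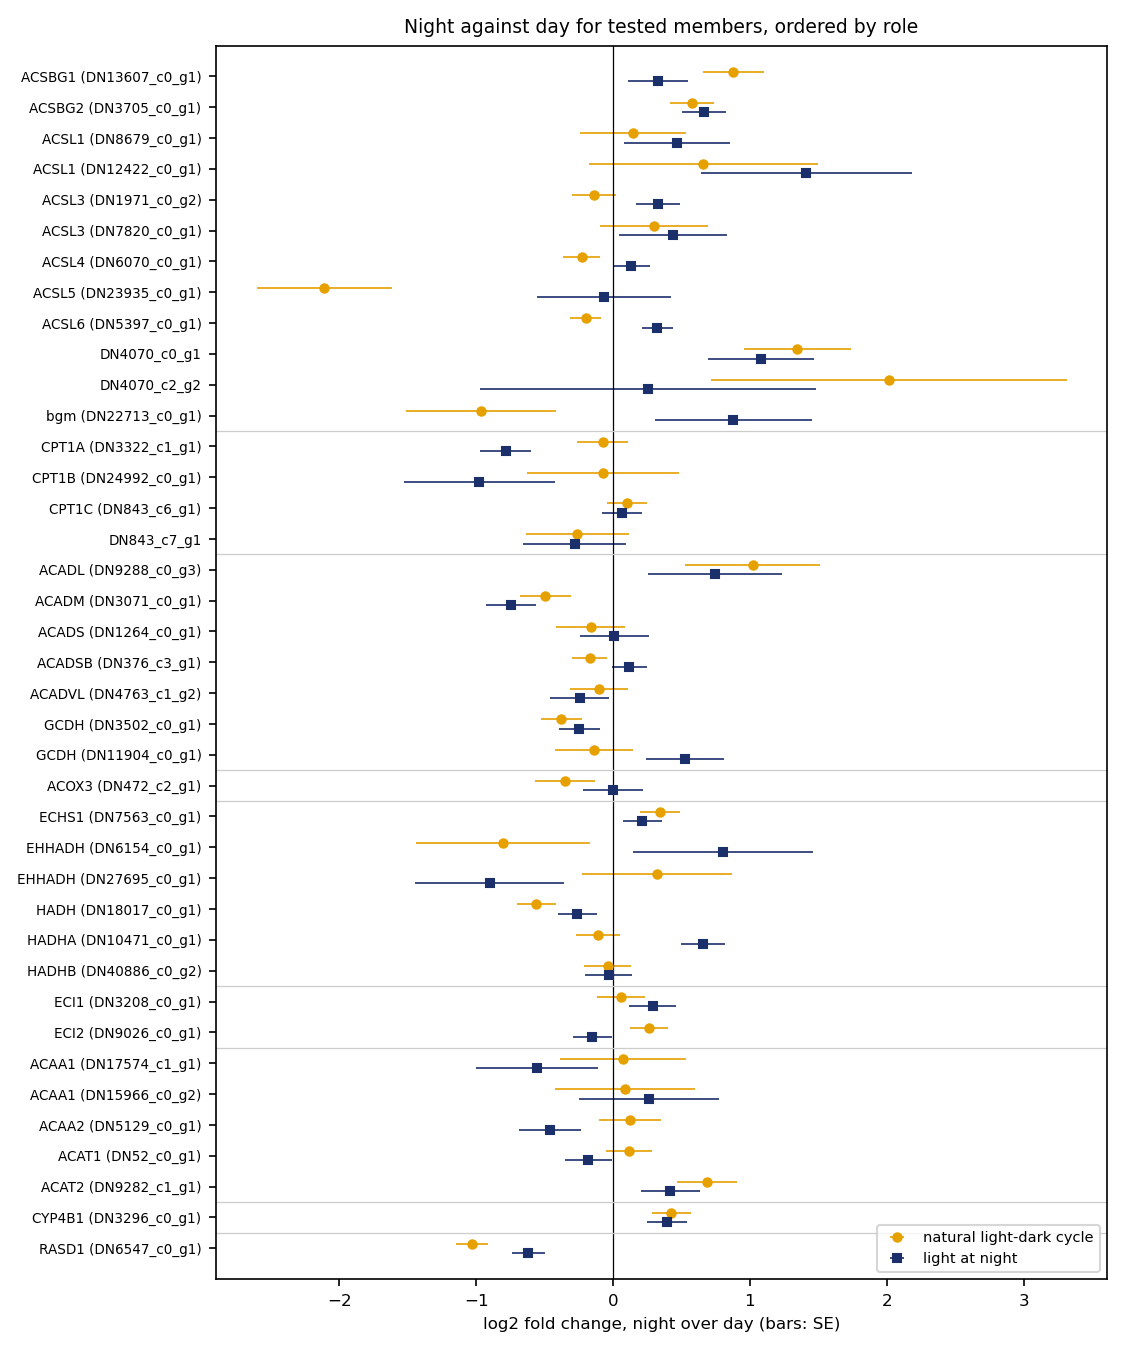
Log2 fold change of night over day (x axis) for tested members, ordered by role, in controls (circles) and under light at night (squares), with SE bars. RASD1 at the bottom lies left of 0 in both, at -1.03 and -0.62, and ACSBG2 lies right of 0 in both, at 0.58 and 0.67.

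RASD1 gave the smallest p of all members. Its level was 190.5, 191 and 204 CPM in control day, 174, 178 and 193 CPM in ALAN day, 83.6, 103, 107 and 89.1 CPM in control night and 99.8, 138, 124 and 112 CPM in ALAN night. Every night brain was lower than every day brain, a separation shown by 2.59% of all features. At night RASD1 fell by 0.82 (log2) over both treatments (SE 0.0844, edgeR adjusted p = 5.26e-05), or 1.77-fold. The call was kept in all 14 fits that each left out 1 library, and the adjusted p was 0.0107 with the marker covariates.

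Over both treatments edgeR called 3 synthetases, all higher at night, and 2 of them are of the bubblegum type. ACSBG1 and ACSBG2 are named after the fly gene bubblegum and activate long and very long chains; ACSBG1 is known in mammals as a marker of astrocytes. ACSBG2 (DN3705_c0_g1) stood at 26.0, 26.6 and 37.5 CPM in control day, 26.1, 24.0 and 25.2 CPM in ALAN day, 51.1, 40.4, 41.1 and 46.7 CPM in control night and 49.0, 38.5, 33.2 and 38.6 CPM in ALAN night. Its night brains were higher in both treatments, and only control day 4 reached into the range of the ALAN night brains. ACSBG2 rose by 0.62 (SE 0.114, edgeR adjusted p = 0.00613), or 1.54-fold, and was called in all 14 leave-one-out fits, but its adjusted p was 0.0900 with the marker covariates.

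ACSBG1 (DN13607_c0_g1) stood at 12.8, 9.07 and 12.9 CPM in control day, 9.18, 15.5 and 11.2 CPM in ALAN day, 27.8, 15.9, 20.0 and 21.5 CPM in control night and 14.3, 17.4, 14.7 and 13.6 CPM in ALAN night. The control groups did not overlap, whereas ALAN day 2 lay within the ALAN night range. ACSBG1 rose by 0.60 over both treatments (SE 0.156, edgeR adjusted p = 0.0439), a call kept in 2 of 14 leave-one-out fits. The glial markers moved in the same direction as ACSBG1 and ACSBG2: 3 of 13 radial glia and astroglia features and 4 of 7 microglia features were called higher at night over both treatments, with list medians of 0.625 and 1.218 on the log2 scale. Their part in the result was not tested.

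The third synthetase was the unnamed feature DN4070_c0_g1, annotated as a long-chain acyl-CoA synthetase. Its level was 6.10, 10.1 and 8.71 CPM in control day, 10.7, 8.27 and 5.14 CPM in ALAN day, 34.3, 14.8, 19.5 and 16.0 CPM in control night and 8.23, 22.6, 14.8 and 22.2 CPM in ALAN night. All night brains except ALAN night 1 exceeded all day brains. The feature rose by 1.21 (SE 0.275, edgeR adjusted p = 0.0232), or 2.32-fold, and kept the call in 10 of 14 leave-one-out fits. The 12 tested synthetases, the called ones among them, had a median log2 fold change of 0.338 at night over both treatments. Of these, 9 lay above and 3 below 0, and the median over all features was 0.011. In controls alone 7 lay above and 5 below 0 (median 0.223, beside 0.015 over all features). Under ALAN 11 lay above and 1 below 0 (median 0.384, beside 0.003).

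CYP4B1 (DN3296_c0_g1), a cytochrome P450 of the family that hydroxylates the omega end of fatty acids, was the other enzyme higher at night. It stood at 17.4, 21.1 and 23.2 CPM in control day, 24.0, 19.0 and 19.1 CPM in ALAN day, 32.9, 28.1, 23.7 and 25.9 CPM in control night and 26.9, 25.9, 28.6 and 27.4 CPM in ALAN night. Within each treatment the night brains all exceeded the day brains. CYP4B1 rose by 0.41 (SE 0.102, edgeR adjusted p = 0.0373), a call kept in 5 of 14 leave-one-out fits.

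Both enzymes called lower at night over both treatments belong to the mitochondrial beta-oxidation spiral, but the members of their role lists did not share a direction. These lists also hold EHHADH, a peroxisomal enzyme, and GCDH, an enzyme of amino acid breakdown. Over both treatments 2 of 7 acyl-CoA dehydrogenases had a log2 fold change above 0 and 5 below. Of the 6 enzymes of the hydratase and 3-hydroxyacyl-CoA dehydrogenase steps, 2 lay above 0 and 4 below. HADHA gave 0.27 (edgeR adjusted p = 0.216) and was not called. ACADM (DN3071_c0_g1), the medium-chain acyl-CoA dehydrogenase, stood at 152, 164 and 112 CPM in control day, 172, 173 and 129.5 CPM in ALAN day, 96.4, 82.7, 138 and 86.9 CPM in control night and 87.9, 84.5, 98.3 and 107 CPM in ALAN night. The ALAN groups did not overlap, and control night 3 reached above control day 4. ACADM fell by 0.62 (SE 0.131, edgeR adjusted p = 0.0154), or 1.54-fold lower at night, and kept the call in all 14 leave-one-out fits. With the marker covariates its adjusted p was 0.366.

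HADH (DN18017_c0_g1), the dehydrogenase of short- and medium-chain 3-hydroxyacyl-CoA, stood at 106, 99.7 and 120.2 CPM in control day, 101, 119.6 and 119 CPM in ALAN day, 63.5, 88.8, 74.7 and 67.2 CPM in control night and 109, 103, 77.7 and 87.9 CPM in ALAN night. Control night was the lowest group and did not overlap with control day, whereas ALAN night 1 and 2 lay among the day brains. HADH fell by 0.41 over both treatments (SE 0.101, edgeR adjusted p = 0.0335), a call kept in 5 of 14 leave-one-out fits. Of 19 neuron marker features 1 was called lower at night over both treatments, with a list median of -0.082. Liver markers had a list median of -1.665 in this contrast (of 22, 1 called higher and 1 lower, 16 at an unadjusted p under 0.05). Muscle markers had -0.963 (3 of 17 called lower, 7 at that threshold). The part of these lists in the falls of RASD1, ACADM and HADH was not tested.

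**Figure D3:**
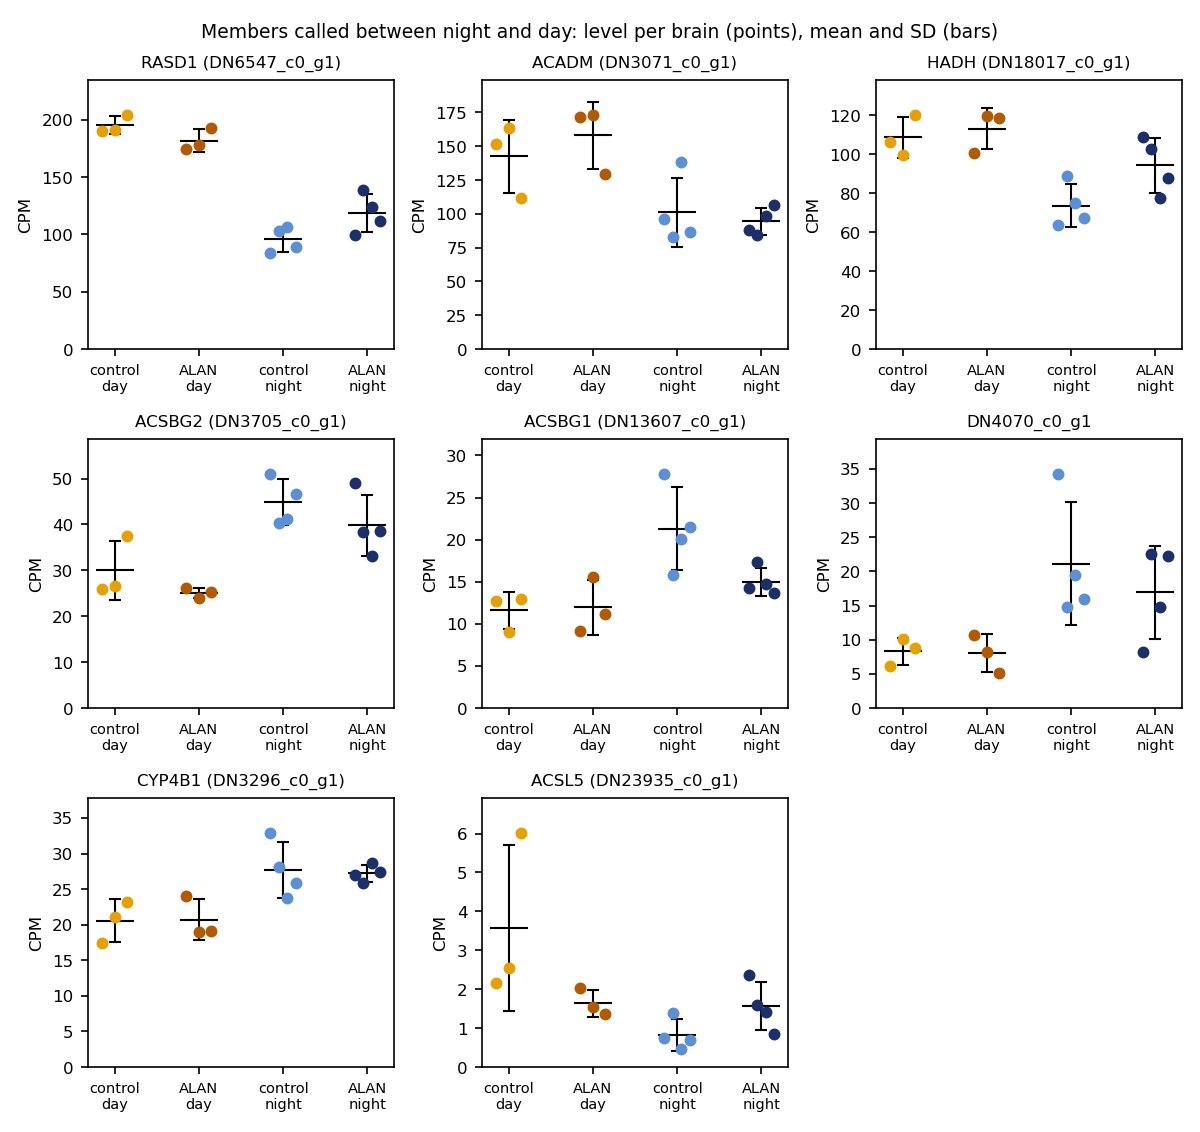
Level in CPM (linear axis from 0) of members called between night and day, per brain (points) in the 4 groups, with group mean and SD (bars). All RASD1 night brains lie at 138 CPM or lower and all its day brains at 174 CPM or higher, whereas for each of the called enzymes at least 1 night brain lies within the day range.

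The enzymes next by p over both treatments were not called by edgeR, although DESeq2 called all 3. ACAT2, the cytosolic acetoacetyl-CoA thiolase, gave a log2 fold change of 0.55 (edgeR adjusted p = 0.0631), CPT1A gave -0.43 (0.0844 by the same test) and ACSL5 gave -1.09 (0.0987). HADHB, the thiolase subunit of the mitochondrial trifunctional protein, had group means of 140.3 CPM ± 11.1 (SD, n = 3) in control day, 134 ± 30.6 (n = 3) in ALAN day, 137 ± 16.8 (n = 4) in control night and 131 ± 24.2 (n = 4) in ALAN night. ACAT1, the mitochondrial acetoacetyl-CoA thiolase, had means of 104 ± 5.10, 115 ± 19.9, 113 ± 21.0 and 102 ± 18.6 CPM in the same order. For HADHB and ACAT1 the differences between these means were smaller than the largest SD.

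Among controls alone, night against day called 2 of 40 members, RASD1 and ACSL5, both lower at night, against 2.07% of all features (1.0% called lower). DESeq2 called 6 members, against 5.33% of all features. At an unadjusted p under 0.05 there were 12 members, and 14.6% of all features passed that threshold. The control groups did not overlap for 10 members (25%), against 13.4% of all features. RASD1 fell by 1.03 (SE 0.119, edgeR adjusted p = 0.000307), or 2.04-fold. Its log2 fold change was -1.01 without control day 1 and 4 (adjusted p = 0.0411) and -1.11 with the marker covariates, where the call was lost (adjusted p = 0.0699).

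ACSL5 (DN23935_c0_g1), a long-chain synthetase abundant in mammalian intestine and liver, was a low transcript, at 2.15, 2.55 and 6.02 CPM in control day and 0.751, 1.40, 0.467 and 0.684 CPM in control night. All 4 night values were lower than the 3 day values, and control day 4 was the highest. ACSL5 fell by 2.11 (SE 0.494, edgeR adjusted p = 0.0452). The call was kept in 4 of 14 leave-one-out fits, and without control day 4 the adjusted p was 0.240; without control day 1 and 4 the log2 fold change was -1.63 (adjusted p = 0.577). Liver markers were also higher in control day than in control night, with 2 of 22 tested features called lower at night and a list median of -2.411, and their part in the ACSL5 difference was not tested.

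By edgeR the members next by p in controls, not called, were ACSBG1 (log2 fold change 0.88, edgeR adjusted p = 0.0620), HADH (-0.56, 0.0623), ACSBG2 (0.58, 0.0893), DN4070_c0_g1 (1.35, 0.105) and ACAT2 (0.69, 0.148). DESeq2 called the first 4 of these. The count of calls in controls changed with single libraries: it was 2 without control day 2, 4 without control night 2, and 1 without control day 1, ALAN day 1, ALAN day 3, control night 1, control night 3, control night 4, ALAN night 2 or ALAN night 3. RASD1 was among the calls in all 14 of these fits.

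Under ALAN, night against day called 1 of 40 members, RASD1, against 1.03% of all features (0.563% called lower). DESeq2 called 5 members (RASD1, ACADM, ACSBG2, CPT1A and HADHA), against 3.16% of all features. RASD1 fell by 0.62 (SE 0.119, edgeR adjusted p = 0.0213), or 1.54-fold, and kept the call in 8 of 14 leave-one-out fits. No member was called without ALAN day 1, ALAN day 2, ALAN day 3, ALAN night 1 or ALAN night 4, nor with the marker covariates or without control day 1 and 4, where the adjusted p of RASD1 was 0.0569 and 0.0594; 2 were called without control day 4 or control night 3. Without ALAN night 3 the 1 call was HADHA in place of RASD1. For night against day under ALAN, liver markers had a list median of -0.82 (0 of 22 called, 2 at an unadjusted p under 0.05). Microglia markers had a list median of 1.007 (0 of 7 called, 4 at that threshold). Radial glia and astroglia markers had 0.231 (0 of 13 called, 3 at that threshold). The part of these lists in the differences under ALAN was not tested. Under ALAN, ACADM gave -0.74 (edgeR adjusted p = 0.0878) and ACSBG2 gave 0.67 (edgeR adjusted p = 0.0769), both called by DESeq2 only.

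The smallest p values after RASD1 under ALAN belonged to CPT1A (log2 fold change -0.79, edgeR adjusted p = 0.0665), ACSBG2, HADHA (0.66, adjusted p = 0.0785) and ACADM. At an unadjusted p under 0.05 there were 8 members, and 11.1% of all features passed that threshold. The ALAN groups did not overlap for 7 members (17.5%), against 11.4% of all features.

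By edgeR no member was called for light at night. ALAN against control at night gave 0 of 40 members by edgeR, 7 at an unadjusted p under 0.05 and 1 by DESeq2, against 0.0289% of all features by edgeR, 4.61% at the unadjusted threshold and 0.197% by DESeq2. The median log2 fold change of the members was 0.034, beside -0.007 over all features. The night groups did not overlap for 3 members (7.5%), against 2.5% of all features. In the same contrast photoreceptor markers had a list median of -3.401 (0 of 16 called, 11 at an unadjusted p under 0.05), liver markers -2.134 (0 of 22 called, 14 at that threshold) and muscle markers -0.957 (0 of 17 called, 5 at that threshold), and their part in the differences that follow was not tested.

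HADHA (DN10471_c0_g1), the subunit of the mitochondrial trifunctional protein that hydrates and dehydrogenates long-chain intermediates, gave the smallest p for light at night. Its level was 44.2, 51.4 and 62.0 CPM in control day, 43.3, 50.4 and 54.6 CPM in ALAN day, 44.2, 46.1, 50.3 and 54.1 CPM in control night and 93.9, 85.1, 61.4 and 71.4 CPM in ALAN night. ALAN night was the high group, its lowest brain above every brain of the other groups except control day 4. The log2 fold change at night was 0.68 (SE 0.146), or 1.60-fold higher, with an unadjusted p of 0.00042 and an edgeR adjusted p of 0.562. DESeq2 gave an adjusted p of 0.0121. Without control night 4, the brain highest in photoreceptor markers, the edgeR log2 fold change was 0.73. Its partner subunit HADHB gave -0.06 in the same contrast (SE 0.160) and was not called.

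The other members whose night groups did not overlap were the ACSL1 feature DN12422_c0_g1 and ACADSB. DN12422_c0_g1 was a rare transcript, at 0.462, 0.400, 0.420 and 0.428 CPM in control night and 0.806, 2.20, 1.85 and 5.37 CPM in ALAN night, with ALAN night 4 far above the rest. Its log2 fold change was 2.56 (edgeR SE 0.738, adjusted p = 0.909). The ACSL1 feature DN8679_c0_g1, at 5.47 to 20.4 CPM over all brains, gave 0.60 at night (edgeR adjusted p = 0.9999). ACADSB (DN376_c3_g1), which acts on short branched chains, stood at 47.6, 51.5, 54.1 and 57.1 CPM in control night and 62.9, 63.8, 71.6 and 65.7 CPM in ALAN night, a log2 fold change of 0.33 (edgeR SE 0.119, adjusted p = 0.998). RASD1 gave 0.31 and HADH gave 0.36, both with an edgeR adjusted p of 0.998 and overlapping groups.

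ALAN against control by day also gave 0 of 40 members by edgeR, 2 by DESeq2 and 6 at an unadjusted p under 0.05, against 0.00481% of all features by edgeR, 0.664% by DESeq2 and 6.92% at the unadjusted threshold. The day groups did not overlap for 6 members (15%), against 10.7% of all features. Liver markers were lower in ALAN day than in control day (list median -3.654, 0 of 22 called, 19 of 22 at an unadjusted p under 0.05), whereas pituitary markers had a list median of 1.45 (0 of 7 called, 1 at that threshold). Muscle markers had a list median of -2.219 (0 of 17 called, 10 at that threshold). Markers of vessels and meninges (13 features) had 0.451 (0 of 13 called, 6 at that threshold). For vessels and meninges even the highest control day sum, 114.2 CPM, was below the lowest ALAN day sum, 132.6 CPM. The part of these lists in the differences that follow was not tested.

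CPT1A (DN3322_c1_g1), the enzyme at the regulated entry step of long chains into mitochondria, stood at 23.9, 33.9 and 26.3 CPM in control day, 62.3, 44.1 and 45.3 CPM in ALAN day, 26.2, 27.8, 27.6 and 24.7 CPM in control night and 34.8, 35.1, 25.2 and 22.4 CPM in ALAN night. ALAN day was the high group, and all its brains exceeded every other brain. The log2 fold change by day was 0.85 (SE 0.199), or 1.80-fold higher, with an unadjusted p of 0.000832 and an edgeR adjusted p of 0.375. DESeq2 gave an adjusted p of 0.0180. Without control day 1 and 4, whose place control day 2 alone then takes, the log2 fold change was 0.57, and without control day 2 it was 1.02.

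ACSL6 (DN5397_c0_g1), a synthetase enriched in mammalian brain, stood at 50.1, 44.2 and 58.8 CPM in control day, 37.1, 37.3 and 35.0 CPM in ALAN day, 50.2, 41.6, 44.5 and 41.7 CPM in control night and 49.0, 43.6, 44.6 and 45.2 CPM in ALAN night. ALAN day was the low group, and no brain of another group reached into it. The log2 fold change by day was -0.48 (SE 0.122, edgeR adjusted p = 0.384; DESeq2 adjusted p = 0.0207), -0.57 without control day 2, and -0.28 both without control day 1 and 4 and with the marker covariates. The bubblegum-like feature bgm (DN22713_c0_g1) stood at 5.09, 2.99 and 5.79 CPM in control day and 1.08, 0.856 and 1.45 CPM in ALAN day, a log2 fold change of -2.02 (edgeR adjusted p = 0.488), and -1.40 without control day 1 and 4.

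An ACAA1 feature and the isomerase ECI2 complete the 5 smallest p values by day. The peroxisomal thiolase ACAA1 (DN17574_c1_g1) stood at 5.81, 4.67 and 5.50 CPM in control day and 14.6, 25.3 and 4.42 CPM in ALAN day. Its ALAN day brains lay on both sides of the controls, with a log2 fold change of 1.47 (edgeR adjusted p = 0.530), and 1.65 without control day 1 and 4. The other ACAA1 feature, DN15966_c0_g2, gave 0.08 by day (edgeR adjusted p = 0.9905). The isomerase ECI2 (DN9026_c0_g1), which moves double bonds of unsaturated chains, stood at 64.2, 83.3 and 81.3 CPM in control day and 104, 95.2 and 89.9 CPM in ALAN day. Its groups did not overlap, with a log2 fold change of 0.34 (edgeR adjusted p = 0.702), which became 0.20 without control day 1 and 4 and -0.14 with the marker covariates. No member was called by day under either of these settings or without control day 2.

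**Figure D4:**
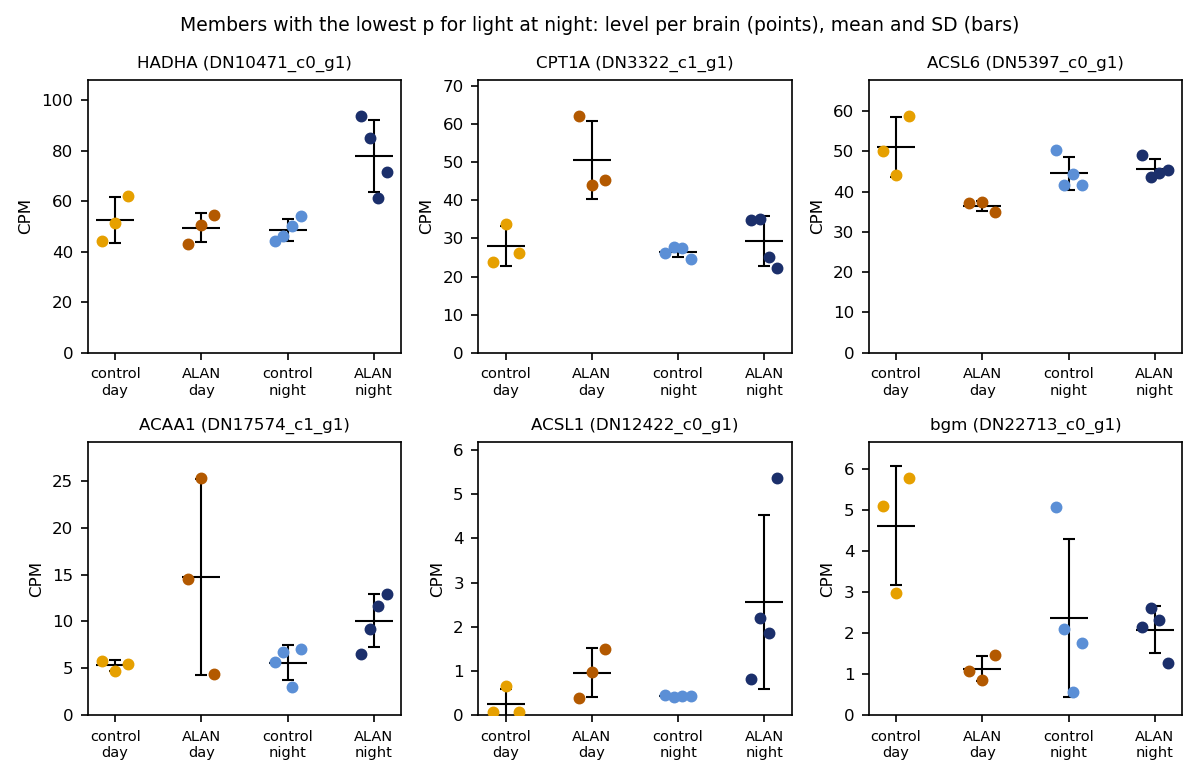
Level in CPM (linear axis from 0) of the members with the lowest p for light at night, per brain (points) in the 4 groups, with group mean and SD (bars). HADHA is highest in ALAN night (61.4 to 93.9 CPM), CPT1A is highest in ALAN day (44.1 to 62.3 CPM) and ACSL6 is lowest there (35.0 to 37.3 CPM), and edgeR called none of them for light at night.

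Whether light at night altered the night-day difference was tested by the interaction term. This called 0 of 40 members by edgeR, 6 at an unadjusted p under 0.05 and 0 by DESeq2, against 0.0%, 6.15% and 0.269% of all features. The smallest p values were those of HADHA (log2 difference 0.77, SE 0.223, edgeR adjusted p = 0.618), ACSL6 (0.52, 0.685), ACSL5 (2.04, 0.723), CPT1A (-0.71, 0.735) and RASD1 (0.41, 0.750), and without control day 1 and 4 these differences were 0.75, 0.32, 1.56, -0.42 and 0.39, with 0 members called. The night-day fold of RASD1, 2.04 in controls and 1.54 under ALAN, was therefore not called different between the light regimes.

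ALAN against control over both times gave 0 of 40 members by edgeR, 6 at an unadjusted p under 0.05 and 1 by DESeq2 (the ACSL1 feature DN12422_c0_g1, adjusted p = 0.0277), against 0.00481%, 5.71% and 0.741% of all features. In the edgeR fit DN12422_c0_g1 gave a log2 fold change of 2.19 (adjusted p = 0.337), CPT1A gave 0.50 (0.341), ACAA1 (DN17574_c1_g1) gave 1.16 (0.419), ACSL6 gave -0.22 (0.726) and bgm gave -1.10 (0.735). For 0 members did all ALAN brains lie on one side of all control brains, against 0.0337% of all features. Without control day 1 and 4 the same 5 features gave 1.56, 0.36, 1.25, -0.12 and -0.78. With all libraries the ACSL1 feature DN8679_c0_g1 gave 0.44 (edgeR adjusted p = 0.9785) and the ACAA1 feature DN15966_c0_g2 gave 0.17 (0.9965). In this contrast liver markers had a list median of -2.996 (0 of 22 called, 19 at an unadjusted p under 0.05). Photoreceptor markers had -1.785 (0 of 16 called, 9 at that threshold). Muscle markers had -1.413 (0 of 17 called, 9 at that threshold) and pituitary markers 1.513 (0 of 7 called, 2 at that threshold). The part of these lists in the differences was not tested.

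The carnitine shuttle is described whole because it gates the entry of long chains. Of its 4 features edgeR called none in any contrast, and DESeq2 called CPT1A by day between treatments and between night and day under ALAN and over both treatments. CPT1C, a brain isoform in mammals with little catalytic activity, had means of 33.9 ± 5.25 (SD, n = 3), 36.2 ± 2.48 (n = 3), 36.4 ± 1.33 (n = 4) and 37.9 CPM ± 7.17 (n = 4) in control day, ALAN day, control night and ALAN night. Its largest log2 fold change over the contrasts was 0.10, seen for night against day in controls. The unnamed DN843_c7_g1, which shares the first part of its identifier with CPT1C, ranged from 12.1 to 42.4 CPM. Its groups overlapped in each contrast. CPT1B, the muscle isoform in mammals, was a low transcript at 0.323 to 1.43 CPM. CPT1A was thus the only shuttle feature whose groups separated, by day between treatments and between night and day under ALAN.

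Other abundant members were not called. GCDH (DN3502_c0_g1), which degrades the glutaryl-CoA of lysine and tryptophan, gave -0.31 at night over both treatments (SE 0.105, edgeR adjusted p = 0.120). The other GCDH feature, DN11904_c0_g1, lay on the other side of 0 in this contrast, at 0.19 (SE 0.201, edgeR adjusted p = 0.697). The abundant synthetase ACSL3 (DN1971_c0_g2) had means of 63.5, 53.1, 57.7 and 66.8 CPM in control day, ALAN day, control night and ALAN night and was not called in any contrast, with ALAN night 1 its highest brain at 90.5 CPM.

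Genes next to the pathway were listed by function: uptake, lipid droplets, the carnitine cycle, electron transfer, other peroxisomal oxidation, ketone bodies, regulators and fatty acid synthesis. Of 98 such features 94 were tested, and night against day over both treatments called 5 higher and 1 lower, against 2.23% and 2.11% of all features. The lists gave 0 of 12 for uptake, 0 of 9 for lipid droplets, 2 of 12 for the carnitine cycle and its inhibitor malonyl-CoA (ACACA and SLC22A5), 1 of 9 for electron transfer (ETFDH, lower), 0 of 12 for peroxisomal oxidation, 0 of 4 for ketone bodies, 1 of 22 for regulators (PDK4) and 2 of 14 for synthesis (FASN and SREBF1). By edgeR no neighbouring feature was called for light at night or for the interaction.

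FASN, which builds palmitate, stood at 15.8, 16.6 and 27.3 CPM in control day, 11.5, 9.98 and 11.9 CPM in ALAN day, 42.4, 30.8, 35.9 and 37.0 CPM in control night and 34.1, 29.9, 35.9 and 44.8 CPM in ALAN night. Every night brain exceeded every day brain. FASN rose by 1.29 over both treatments (SE 0.143, edgeR adjusted p = 0.000114), by 0.87 in controls (adjusted p = 0.0394) and by 1.70 under ALAN (adjusted p = 0.000594). The call in controls was kept in 4 of 14 leave-one-out fits and lost without control day 1 and 4 (log2 fold change 1.13, adjusted p = 0.112), whereas the other calls were kept in all 14. In the same fit ACACA, which makes the malonyl-CoA that inhibits CPT1, gave 0.17 in controls (adjusted p = 0.6525), where its groups overlapped. Under ALAN it gave 0.73 (adjusted p = 0.02535). SREBF1, a transcriptional activator of FASN and ACACA, gave 0.53 in controls (adjusted p = 0.07745) and 0.75 under ALAN (adjusted p = 0.0203). Over both treatments ACACA rose by 0.45 (adjusted p = 0.0225) and SREBF1 by 0.64 (adjusted p = 0.00206). The ACACA call was kept in 12 of 14 leave-one-out fits (lost without control day 1 or ALAN day 1), the SREBF1 call in all 14, and both were kept without control day 1 and 4.

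ETFDH, which passes electrons from the acyl-CoA dehydrogenases to the respiratory chain, had means of 55.7 ± 4.72 (SD, n = 3) in control day, 55.9 ± 4.92 (n = 3) in ALAN day, 35.5 ± 3.04 (n = 4) in control night and 43.4 CPM ± 5.03 (n = 4) in ALAN night. Its night brains were all lower than its day brains, as for RASD1. ETFDH fell by 0.51 over both treatments (SE 0.0842, edgeR adjusted p = 0.00298), and the call was kept in all 14 leave-one-out fits and without control day 1 and 4. PDK4, a kinase that restrains pyruvate oxidation, rose by 1.38 (adjusted p = 0.0115), from means of 1.96 and 3.91 CPM in the day groups to 5.38 and 9.72 CPM in the night groups. SLC22A5, a plasma-membrane carnitine transporter, rose by 1.19 (adjusted p = 0.0228), a call lost without control day 4, ALAN day 1, ALAN day 2 or ALAN night 3. Without control day 1 and 4 the PDK4 and SLC22A5 calls were lost (log2 fold changes 1.02 and 0.87, adjusted p = 0.183 and 0.165). With the marker covariates the ETFDH, PDK4, SLC22A5 and ACACA calls were lost (adjusted p = 0.0757, 0.169, 0.295 and 0.0779).

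The receptors that regulate the pathway in mammals and the mitochondrial carnitine carrier were not called by edgeR in any contrast. Over both treatments PPARA gave -0.08 (SE 0.129), PPARD gave -0.13 (SE 0.242), PPARG gave 0.14 (SE 0.225) and SLC25A20 (DN9094_c0_g2) gave -0.12 (SE 0.0984) for night against day on the log2 scale. SLC25A20 had means of 33.6, 33.0, 29.6 and 32.0 CPM in control day, ALAN day, control night and ALAN night.

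**Figure D5:**
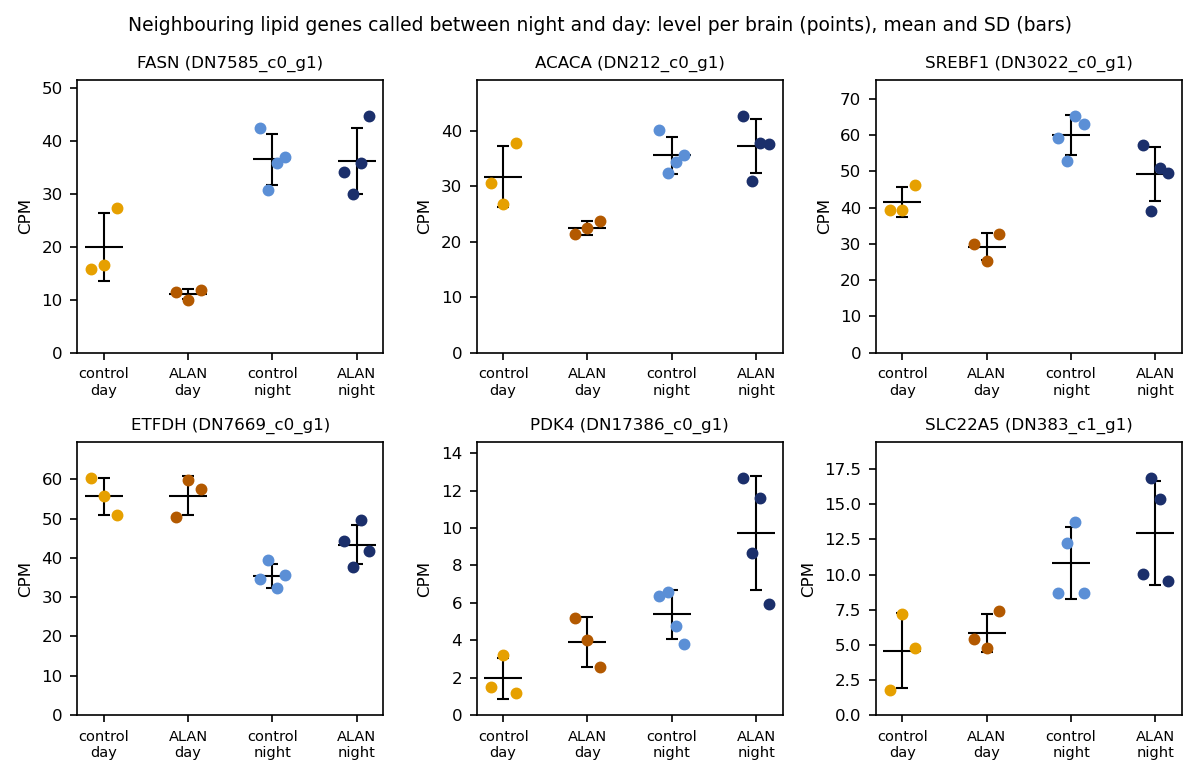
Level in CPM (linear axis from 0) of 6 neighbouring lipid genes called between night and day, per brain (points) in the 4 groups, with group mean and SD (bars). FASN lies at 27.3 CPM or lower in the day brains and at 29.9 CPM or higher in the night brains, and ETFDH is lower in both night groups.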

How the data were processed

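Trimmomatic 0.39, Bowtie2 and RSEM are named in the submitters' processing notes, with no settings. The deposited table holds the authors' expected counts per assembled gene for 14 non-stranded libraries of 150-base paired reads. Per the labels the libraries carried unique molecular identifiers of 9 bases, with no word on their collapsing in the sources used here. No columns belonged to other samples, and 3 stranded assembly libraries were not analysed here. Names, pathways and the bit score of each match come from the authors' deposited annotation (eggNOG-mapper 2.1.7, per the file headers).

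After rounding the expected counts to whole numbers, features were filtered with filterByExpr (minimum count 10, total 15), which kept 20782 and removed 1023, and scaled by TMM (factors 0.870 to 1.08). The 14 libraries were fitted together by group with the quasi-likelihood functions of edgeR 4.0.16 (R 4.3.3; 10 residual and 3.55 prior degrees of freedom) to give 7 contrasts, each adjusted by the Benjamini-Hochberg method over all 20782 features with a threshold of 0.05. The over-both contrasts average the 2 simple ones. SE is the absolute log2 fold change over the square root of F. CPM uses the TMM-scaled totals. The fit was tested on simulated data for night-day contrasts only, with changes placed in well-counted features. The outcome is not given here, and this test does not cover the ALAN contrasts or rare transcripts. Groups did not overlap when each value of one exceeded each value of the other.

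Alternatives were DESeq2 1.42.0 (up to 897 features without an adjusted p), its size factors, no filter, a replicate block, features summed by gene name, only the groups compared and leaving out each library. The marker covariates, and leaving out control day 1 and 4 together, were added after the data had been seen.

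The members and gene lists were chosen with earlier results of these data known. Named members were those called in any contrast, the 5 with the smallest p among those not called per contrast, the carnitine shuttle, the member of highest CPM in each role, and among neighbouring genes those called and PPARA, PPARD, PPARG and SLC25A20. The features DN15966_c0_g2 (ACAA1), DN8679_c0_g1 (ACSL1) and DN11904_c0_g1 (GCDH) were added outside this rule after their values had been seen. Values of 1 member and of 1 marker gene are not reported here.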

Additional observations from a re-analysis of the deposited data

Results flagged for a closer look

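In 72 groups of 4 brains (25 named members and 11 neighbouring genes, in the night groups), 2 held a single brain far from the others by Dixon's test, and chance alone flags about 1 in 20 groups. HADHB was 161.8 CPM in control night 2, against 127 to 129 CPM in the other control night brains, a gap of 0.939 of the group's range. ECI2 was 74.59 CPM in ALAN night 3, against 89.7 to 92.4 CPM in the other ALAN night brains, a gap of 0.849 of the range. HADHB and ECI2 were called in no contrast by edgeR or DESeq2.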

How the results depend on the processing

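Of 1204 values of single named genes under other settings, 1062 kept their direction and side of the threshold, 115 lost the call, 26 gained it and 1 reversed: ECI2 for ALAN by day, -0.14 with marker covariates. Only values called in the main fit could lose a call, so the 115 are not to be read as a share of all 1204. Over both treatments the ACSBG1 call was kept in 2 of 14 leave-one-out fits, and the RASD1 call in all 14. Leaving out 1 library at a time gave 1 to 4 members called for night against day in controls, 0 to 2 under ALAN, 3 to 7 over both treatments and 0 to 0 for the other contrasts. In controls the 2 calls became 6 by DESeq2, 4 with features summed by name, 1 when only the groups compared were fitted, 1 with the replicate block, 0 with marker covariates and 1 without control day 1 and 4. Under ALAN the 1 call became 5 by DESeq2 and 0 with only the groups compared, with marker covariates or without control day 1 and 4. Over both treatments the 7 became 2 with the replicate block (RASD1 and ACSBG2), 1 with marker covariates and 3 without control day 1 and 4. For ALAN, DESeq2 called 1 at night, 2 by day and 1 over both times in place of 0. The cause was not tested. Between same-numbered brains the deviations from group means correlated at -0.167 to 0.103. Differently numbered brains were not compared, so whether the numbers pair the brains was not settled. DESeq2 size factors moved the median of all genes by at most 0.012 on the log2 scale and changed the sign of 1 member, under ALAN. Over all features DESeq2 called 1108 for night against day in controls, against 430 by edgeR. Leaving control day with 1 brain assumes that it varies like the other groups. Rare transcripts such as CPT1B, at 0.323 to 1.43 CPM, rest on few reads, so their differences were poorly measured at this depth.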
